A study of Mus musculus with 7 samples.

Results

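The mRNAs of 10 genes of DNA replication licensing were followed through transcriptome-wide chemical probing of RNA structure in E14 mouse embryonic stem cells (ESCs), an established line of strain 129/Ola kept on gelatin with the cytokine LIF. They were chosen by gene symbol: *Mcm2* to *Mcm7*, *Cdc45*, *Pcna*, *Cdt1* and *Gmnn*. All 10 symbols were listed and none was absent. They accounted for 28 of the 26792 transcripts, and for 10 of the 13218 genes, that matched the annotation. In CIRS-seq, dimethyl sulfate (DMS) or a carbodiimide (CMCT) modifies unpaired bases of RNA in a deproteinized cell lysate, and reverse transcription (RT) stops next to the modified base. There were 2 biological replicates each of RNA treated with DMS, where 4 doses from 50 to 200 mM were pooled, of RNA treated with CMCT, where 4 doses from 10 to 50 mM were pooled, and of non-treated (NT) RNA, in which stops arise without a reagent. One ribosomal RNA-depleted RNA-seq library, from cells of the same line lysed on the plate, gave transcript levels. All CIRS-seq groups shared the line and the digestion of proteins, the lysis buffer and incubation time differed between DMS and CMCT, and both comparisons used the same NT libraries. NT RNA came from the reagent-free aliquots of the DMS and the CMCT series, which differed in buffer, and the proportion of each is not given in the sources used here. With 2 replicates per treatment, no exact permutation test of a single value can go below a two-sided p of 0.333, so single shares and counts are given by their values, and tests are those fitted across all genes.

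Before a cell can copy its DNA, each replication origin is licensed: the origin recognition complex and Cdc6, together with Cdt1, load a double ring of the hexameric Mcm2 to Mcm7 helicase onto DNA. Geminin, the product of *Gmnn*, binds Cdt1 and blocks further loading, so that each origin fires once per cycle. At firing, Cdc45 and the GINS complex join the ring to make the active helicase, and Pcna is the sliding clamp that holds DNA polymerase on the new strand. ESCs cycle rapidly and carry much of this machinery.

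The following mm9 coordinates span all listed transcripts of each gene. Helicase subunits were encoded by *Mcm2* (ENSMUSG00000002870.7) at chr6:88833469-88848774 (minus strand), *Mcm3* (ENSMUSG00000041859.9) at chr1:20793055-20810359 (minus strand) and *Mcm4* (ENSMUSG00000022673.3) at chr16:15623990-15637493 (minus strand). The other ring subunits were *Mcm5* (ENSMUSG00000005410.4) at chr8:77633427-77652338 (plus strand), *Mcm6* (ENSMUSG00000026355.4) at chr1:130228168-130256233 (minus strand) and *Mcm7* (ENSMUSG00000029730.10) at chr5:138605811-138613650 (minus strand). The helicase cofactor was *Cdc45* (ENSMUSG00000000028.8) at chr16:18780546-18811719 (minus strand) and the clamp *Pcna* (ENSMUSG00000027342.7) at chr2:132074898-132079050 (minus strand). The loader was *Cdt1* (ENSMUSG00000006585.2) at chr8:125091915-125097028 (plus strand) and its inhibitor *Gmnn* (ENSMUSG00000006715.4) at chr13:24843714-24853792 (minus strand). For regions, reactivity and single positions, the transcript with the longest coding part was used for each gene. These transcripts ran from 1127 bases in *Gmnn* to 3589 in *Mcm4*, and their coding part from 621 to 2715 bases in *Mcm2*.

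Summed over transcripts, so that a position shared by several transcripts counted in each, the 6 CIRS-seq libraries held between 181944556 and 338201940 RT stops. Only 6.84% to 11.2% of that sum lay at positions whose next 25 bases occur once in the mouse genome, here called unique positions. Positions whose next 25 bases cross an exon junction were not counted as unique. Counted once per gene, the libraries held between 140186204 and 247369982 stops, of which 6.66% to 9.86% were unique. For the 10 licensing genes together the counts at unique positions ranged from 13972 (NT replicate 2) to 36080 (CMCT replicate 1). The RNA-seq library contained 22286799 alignments whose midpoint lay in the exons of a single gene, and it carried the markers of its label: all 10 ESC markers reached at least 1 RPKM (alignments scaled to exon length and to the library's counted total), with a median of 66.9, whereas none of the 6 fibroblast markers did, the highest being *Thy1* at 0.336. Of 7 measured germ layer markers 3 reached that level, *Gata4* being highest at 2.16. The 4 cycling-cell markers ranged from 24.2 (*Cdk1*) to 109 (*Top2a*).

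A single coding position per mRNA and reagent was selected by its counts and is shown in its sequence. For every gene the unique coding position with the largest excess of the reagent's share of stops over the NT share was taken, among positions with at least 10 stops in each replicate. Since they were selected for that excess, their counts are a description. Eligible positions were few in places, from 1 (*Gmnn*) to 31 (*Mcm5*) for DMS and from 2 (*Gmnn*) to 73 (*Mcm5*) for CMCT, where there were any. In DMS the selected base was A in all 9 mRNAs that had such a position, *Cdc45* having none. In CMCT it was U in 7 of 9, and C in *Mcm6* and *Pcna*. The following 30-base coding windows, written 5′ to 3′ as RNA with the selected base in capitals, show these sites for DMS in *Pcna* (chr2:132075526-132075555, minus strand), *Mcm6* (chr1:130242560-130242589, minus), *Mcm5* (chr8:77633681-77633710, plus) and *Cdt1* (chr8:125093309-125093338, plus), all in mm9 coordinates and within single exons.
Pcna, DMS: cugucuccuacaguAacacucaguaugucu
Mcm6, DMS: caaugaugaaguaaAacgcggugucuuacu
Mcm5, DMS: ggcccgcaagucgcAacugcagaggcgauu
Cdt1, DMS: cccgaguccaagagAaugcuguggagccua

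At the *Pcna* site, in codon 225, the DMS replicates each had 41 stops, against 1 and 0 in NT and 5 and 4 in CMCT. *Mcm6* showed 24 and 22 stops in DMS in codon 365, against 1 and 0 in NT. At codon 30 of *Mcm5* there were 20 and 21 stops in DMS, against 1 and 0 in NT. *Cdt1* had 11 and 12 in codon 159, against 1 in each NT replicate. At the site of *Mcm3*, which is not shown, the DMS replicates had 22 and 16 stops. These counts are not scaled to depth, so equal counts in the replicates are not equal shares. The unique DMS stops of the gene were 2882 and 2049 in *Mcm3*, 2003 and 1413 in *Pcna* and 1910 and 1170 in *Cdt1*.

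For CMCT the corresponding windows are shown for *Mcm2* (chr6:88837797-88837826, minus strand), *Mcm3* (chr1:20799705-20799734, minus), *Mcm4* (chr16:15627775-15627804, minus) and *Pcna* (chr2:132075520-132075549, minus), the last of which is a C and lies 6 bases downstream of the DMS site of the same mRNA.
Mcm2, CMCT: ugggucucaccgcgUacguucagcggcauc
Mcm3, CMCT: aagauacccgcauuUaugagaagcaugaca
Mcm4, CMCT: gcauaugcccauagUaccaucaugccccga
Pcna, CMCT: ccuacaguaacacuCaguaugucugcagau

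In codon 559 of *Mcm2* the CMCT replicates had 111 stops each, and the site was also a strong natural stop, with 44 and 24 in NT. *Mcm3* had 79 and 61 stops in CMCT in codon 545, against 8 and 4 in NT and 19 and 12 in DMS. The *Mcm4* site, in codon 695, had 23 and 22 stops in CMCT, against 2 and 1 in NT. The C of *Pcna* had 30 and 29 stops in CMCT against 18 and 10 in NT. Of all 9 CMCT sites, *Mcm2* and *Pcna* were the 2 with at least 10 stops in each NT replicate.

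The base that follows was A at all 18 selected sites, 9 for DMS and 9 for CMCT. This was set against all unique positions. Over the 10 mRNAs together, positions followed by A held 2.12 to 2.46 times the average number of stops per position in each of the 6 libraries, NT included, and positions followed by G 0.314 to 0.405 times. Over the covered protein-coding genes, the same ratio for a following A was 1.66 to 2.23. In single mRNAs, 19.8% (*Cdt1*) to 27.5% (*Mcm4*) of the unique positions preceded an A, and these held 46.2% to 66.2% of the stops in every library for 9 mRNAs. *Pcna* was lower in CMCT, at 36.0% and 32.8%, and in NT replicate 1, at 38.3%. Within this context the reagents still differed: an A followed by an A held 0.372 and 0.513 times the average in NT but 2.75 and 3.59 times in DMS, and a U followed by an A held 4.66 and 5.05 times in NT, 3.65 and 2.93 times in DMS and 6.51 and 7.06 times in CMCT. A C followed by an A held 3.38 to 4.34 times the average in NT, 3.16 to 3.76 times in DMS and 3.35 and 3.00 times in CMCT. The selected CMCT sites of *Mcm6* and *Pcna* were of this kind, in which CMCT did not exceed NT over the 10 mRNAs together. The part of the following base in the counts at the selected sites was not tested.

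The question of which bases the reagents marked in each mRNA was addressed by the share of unique stops on each base. In such shares a rise of one base lowers the others. For *Mcm2*, A took 10.4% and 13.2% of the NT stops, 28.7% and 38.1% of the DMS stops and 11.2% and 11.5% of the CMCT stops. For *Gmnn* the DMS shares were the highest of the 10, at 43.9% and 49.9%, against 13.1% and 15.5% in NT. *Pcna* had the lowest, 19.7% and 24.4% in DMS against 3.97% and 4.85% in NT. The DMS shares lay above the NT shares without overlap in all 10 mRNAs, as in 86.2% of the 9979 genes tested, and NT replicates never exceeded 15.5%. Over 5531 protein-coding genes with at least 100 stops in every library, the median share on A was 12.5% and 14.04% in NT and 30.6% and 40.6% in DMS.

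In a model of each base against the gene's other bases, the share on A rose in DMS in 10 of 10 mRNAs, compared with 61.5% of 9979 genes tested and 66.5% of the 6702 protein-coding ones. The log2 change, relative to the gene's total, ranged from 1.22 (SE 0.22, adjusted p = 0.029) in *Mcm7*, another subunit of the ring, to 2.31 (SE 0.34, adjusted p = 0.00033) in *Pcna* by edgeR's quasi-likelihood usage test, and the median was 1.51. In *Cdc45*, the least abundant of the 10, it was 1.78 (SE 0.33, adjusted p = 0.0014). The calls depended on single libraries: without NT replicate 1, 2 of the 10 passed (12.5% of all genes), without NT replicate 2, 3 (17.7%), and without DMS replicate 2, 3 (23.1%). The log2 change of each mRNA with an NT or DMS library left out was at least 1.07. For C, also a target of DMS, the log2 values were all below 0, from -0.50 (*Cdc45*) to -0.02 (*Pcna*), and 0 of 10 passed. Over the 5531 protein-coding genes the median share on C was 39.0% and 32.3% in NT and 33.5% and 28.1% in DMS. Stops on U made up a smaller share in DMS, with log2 values from -1.05 (*Gmnn*) to -0.24 (*Pcna*, above 0 without NT replicate 1 or DMS replicate 2), but 0 of 10 passed (background 11.3%, or 5.75% of protein-coding genes), and 3 had an unadjusted p under 0.05 (26.7% of genes). On G, 0 of 10 passed for a lower share (background 6.33%, or 3.16% of protein-coding genes), and *Gmnn* came closest, at -1.03 (adjusted p = 0.059), the 1 unadjusted p under 0.05 (16.8% of genes). *Gmnn* passed for both bases without CMCT replicate 1 (adjusted p = 0.042 for U and 0.048 for G) or CMCT replicate 2 (0.040 and 0.043). With all positions, *Gmnn* (0.021) and *Cdc45* (0.045) passed for U (background 9.13%) and *Gmnn* for G (0.038, background 5.63%).

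**Figure D1:**
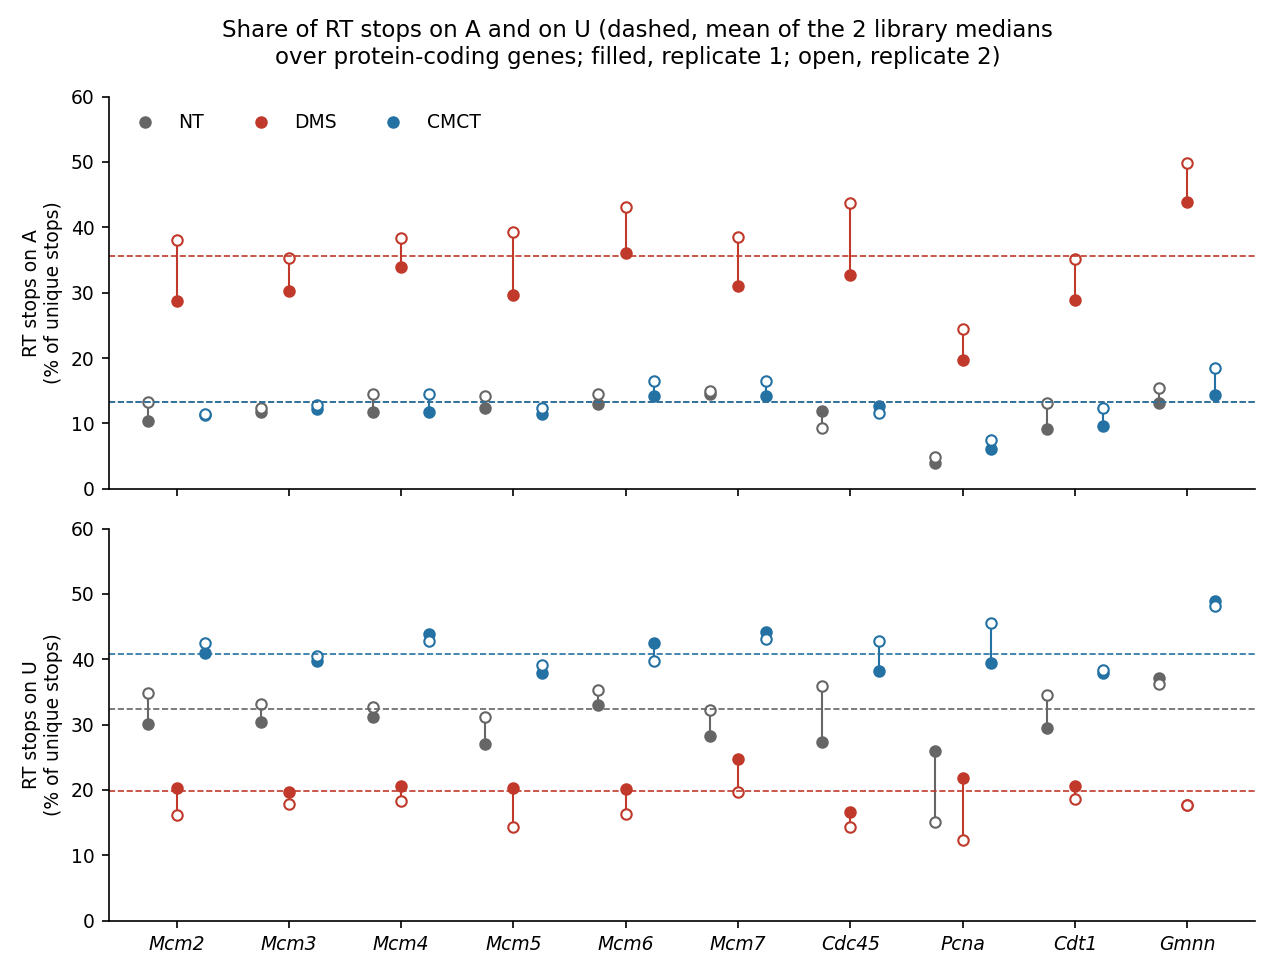
Share of RT stops at unique positions that fell on A (upper panel) and on U (lower panel), in percent, for each of the 10 mRNAs in NT, DMS and CMCT. Filled points are replicate 1, open points replicate 2, and dashed lines the mean of the 2 library medians over 5531 protein-coding genes. The DMS points for A lie above 19% in every mRNA while no NT point exceeds 15.5%, and CMCT points for U lie above the NT points of the same mRNA.

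U, the main target of CMCT, was examined in the same way. For *Mcm2*, U took 30.1% and 34.8% of the NT stops, 20.3% and 16.2% of the DMS stops and 40.9% and 42.5% of the CMCT stops. *Gmnn* had the highest shares in CMCT, 48.9% and 48.2%, against 37.1% and 36.3% in NT. *Pcna* had the widest gap, 39.4% and 45.6% in CMCT against 26.0% and 15.1% in NT. CMCT shares lay above the NT shares without overlap in all 10 mRNAs, compared with 70.8% of genes, and 0 of 10 passed the usage test (background 1.14% of 10018 genes, or 0.355% of the protein-coding ones), with log2 changes from 0.26 (*Cdt1*) to 1.03 (*Pcna*, adjusted p = 0.43) and 1 unadjusted p under 0.05 (7.54% of genes). For G, a lesser target of CMCT, the log2 values were all below 0, from -0.53 (*Gmnn*) to -0.02 (*Cdt1*), and 0 of 10 passed. Over the 5531 protein-coding genes the median share on G was 14.6% and 17.8% in NT and 12.8% and 13.6% in CMCT.

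Total stops per mRNA were compared next. In these bulk libraries fewer cells of a type and less RNA per cell cannot be told apart, and a gene's stops hold both its amount of RNA and its modification. At all positions *Mcm5*, the mRNA of a ring subunit next to the Mcm2 gate, stood apart. Its counts were 17278 and 14855 in NT, 10744 and 9114 in DMS and 13666 and 9870 in CMCT. After scaling, *Mcm5* fell in DMS by 1.16 (SE 0.31, adjusted p = 0.015) and in CMCT by 0.96 (SE 0.31, adjusted p = 0.035) on the log2 scale. It was the 1 member of 10 that passed for a fall in DMS (background 12.5% of 13216 genes) and in CMCT (background 13.9%), and 0 of 10 passed for a rise (backgrounds 13.8% and 15%). Among the 7943 protein-coding genes 13.3% and 17.7% fell and 6.94% and 6.51% rose. The DMS call was lost without NT replicate 2 (adjusted p = 0.070) or DMS replicate 1 (0.10). The CMCT call was lost without NT replicate 1 (0.061), NT replicate 2 (0.14), DMS replicate 1 (0.078), CMCT replicate 1 (0.11) or CMCT replicate 2 (0.058). Scaled to library totals, which raised the median of all genes from 0.01 to 0.54 in DMS and from 0.11 to 0.49 in CMCT, *Mcm5* was at -0.61 (adjusted p = 0.15) and -0.57 (adjusted p = 0.17).

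Other members passed at all positions when the counts were scaled or tested differently. *Gmnn* rose in DMS by DESeq2 (0.48, adjusted p = 0.0088, background 22%) and with library totals (1.01, adjusted p = 0.019, background 30.6%), against 0.47 (adjusted p = 0.16) above. *Mcm4*, a ring subunit, rose in CMCT by DESeq2 (0.42, adjusted p = 0.031, background 19.3%) and with library totals (0.89, adjusted p = 0.030, background 26.8%), against 0.52 (adjusted p = 0.14). *Mcm2* fell in DMS by DESeq2 (-0.70, adjusted p = 0.0069, background 20.3%), against -0.70 (adjusted p = 0.085). Among protein-coding genes these 5 shares were 13.8%, 21.3%, 11.1%, 17.2% and 23.7%, in the order given.

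Many of these stops lay in one short stretch. Near the end of the 3′ UTR of *Mcm5*, nearly all of them from 3148 bases after the start codon on, 137 positions whose 25 bases recur in the genome, some at least 250 times, held 11314 and 11346 stops in NT, 5213 and 5159 in DMS and 5207 and 4582 in CMCT. That was 65.5% and 76.4% of the gene's stops in NT, 48.5% and 56.6% in DMS and 38.1% and 46.4% in CMCT. Elsewhere in *Mcm5* the counts were 5964 and 3509 in NT, 5531 and 3955 in DMS and 8459 and 5288 in CMCT. How the deposited counts treat reads with several places in the genome is not given in the sources used here, so that these stops cannot be ascribed to *Mcm5*. At unique positions its log2 changes were -0.39 (SE 0.21, adjusted p = 0.24) in DMS and -0.12 (SE 0.21, adjusted p = 0.75) in CMCT.

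**Figure D2:**
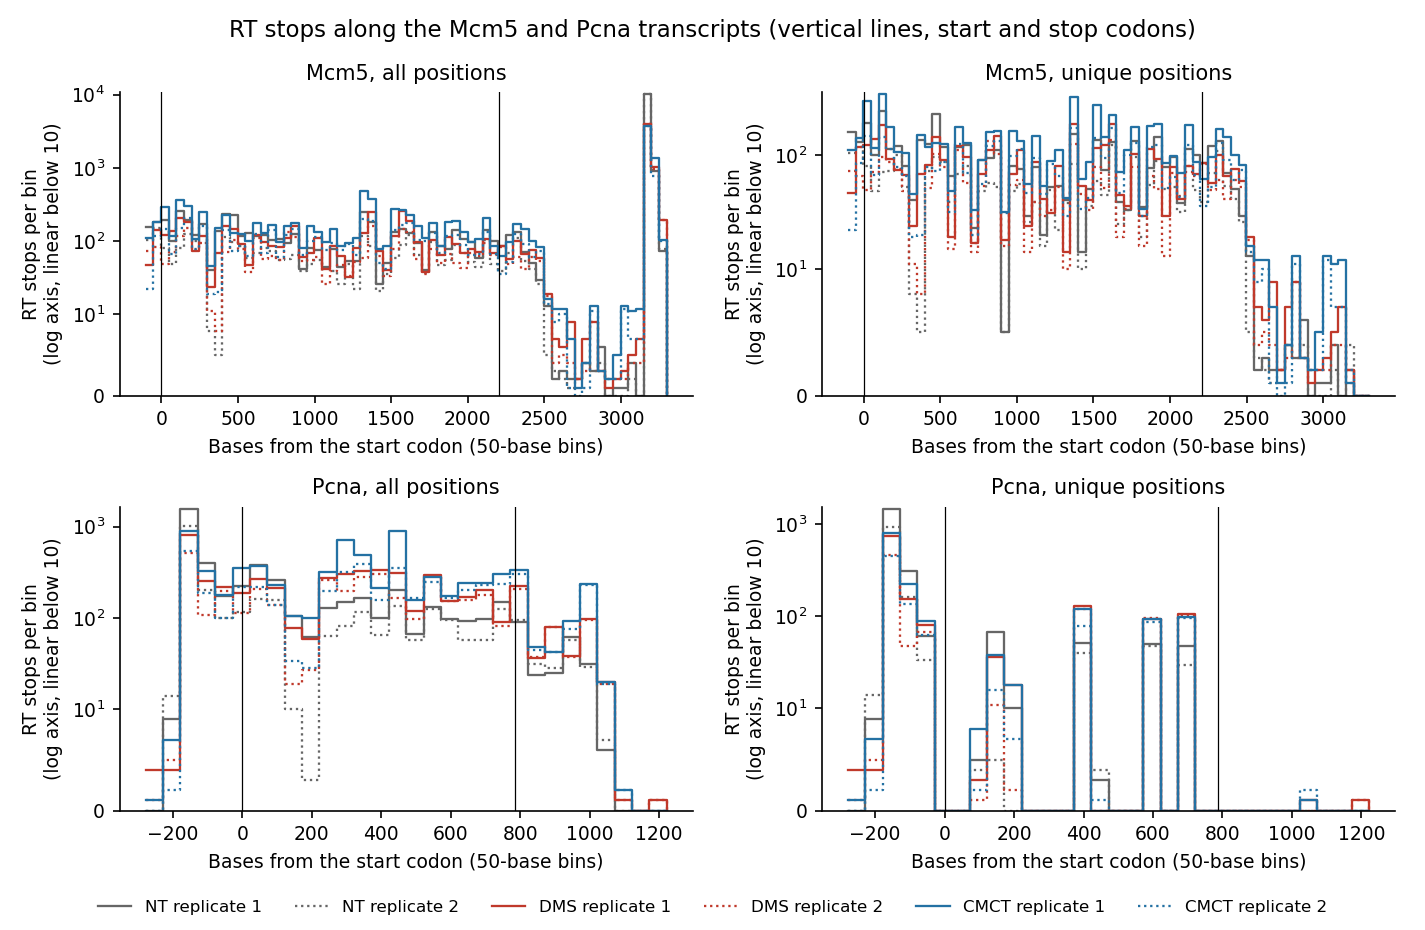
RT stops in 50-base bins along the *Mcm5* and *Pcna* transcripts, against the distance from the start codon, at all positions (left) and at unique positions (right), on a log axis that is linear below 10. Solid lines are replicate 1 and dotted lines replicate 2, and vertical lines mark the start and stop codons. The peak at the 3′ end of *Mcm5* leaves at most 4 stops per library at unique positions, and most of the *Pcna* coding region has no unique position, so its bins drop to 0 there.

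*Pcna* and *Mcm7* also shared much of their sequence. Unique positions held 35.1% of the stops of *Pcna* and 40.1% of those of *Mcm7*, against 72.6% to 88.0% in the other 7 apart from *Mcm5* (35.2%). Not all the rest was repeated sequence. Coding positions just before an exon junction held 27.4% of the stops on the *Cdc45* transcript, 17.7% on that of *Mcm7* and 8.26% on that of *Pcna*. In *Mcm7*, 1069 coding positions with a second copy in the genome held 45.5% of its stops, and in *Pcna* 550 coding positions with up to 3 copies held 46.1%. Their values at all positions are therefore uncertain, since near-identical copies could share the reads.

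At unique positions 0 of 10 mRNAs passed in either direction. The backgrounds among 11479 genes were 6.59% for a rise and 2.72% for a fall in DMS, and 4.36% and 1.19% in CMCT. Of the 7415 protein-coding genes, 1.83% rose and 1.36% fell in DMS, and 1.23% rose and 0.904% fell in CMCT. An unadjusted p under 0.05 was found for 3 in DMS (30.4% of genes) and for 1 in CMCT (27.3%). Of the 7415 protein-coding genes, 1548 had one in DMS and 1679 in CMCT. DESeq2 called 2 lower in DMS (*Mcm2* and *Pcna*, background 6.06%) and 1 lower in CMCT (*Pcna*, background 7.81%), where 4.4% and 8.21% of protein-coding genes were. *Pcna* had 2469 and 1588 stops in NT, 2003 and 1413 in DMS and 2522 and 1594 in CMCT, which gave log2 changes of -0.65 (SE 0.19, adjusted p = 0.095) and -0.62 (SE 0.19, adjusted p = 0.13). *Mcm2*, the subunit that carries a histone-binding tail, had 3618 and 2103 in NT, 2826 and 1856 in DMS and 6322 and 3989 in CMCT, and its change in DMS was -0.68 (SE 0.23, adjusted p = 0.12). *Gmnn* was the exception in direction: 350 and 226 stops in NT, 558 and 473 in DMS and 701 and 415 in CMCT, with a log2 change in DMS of 0.44 (SE 0.19, adjusted p = 0.17). Scaled to the library total, its DMS values of 45.5 and 39.3 CPM lay clear of 25.9 and 20.8 in NT. That scaling raised the median of all genes in DMS from 0.04 to 0.46 and called *Gmnn* (0.86, adjusted p = 0.048, background 22.5%, or 11.6% of protein-coding genes), but it also turned the sign of *Mcm4*, *Mcm5* and *Mcm6*. Relative to the median gene, 1 of the 10 mRNAs, *Gmnn*, lay above it in DMS. In CMCT 6 of 10 did. These counts were the same under each of the 3 scalings, but a scaling moves all genes nearly alike, so that sameness is no separate result.

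**Figure D3:**
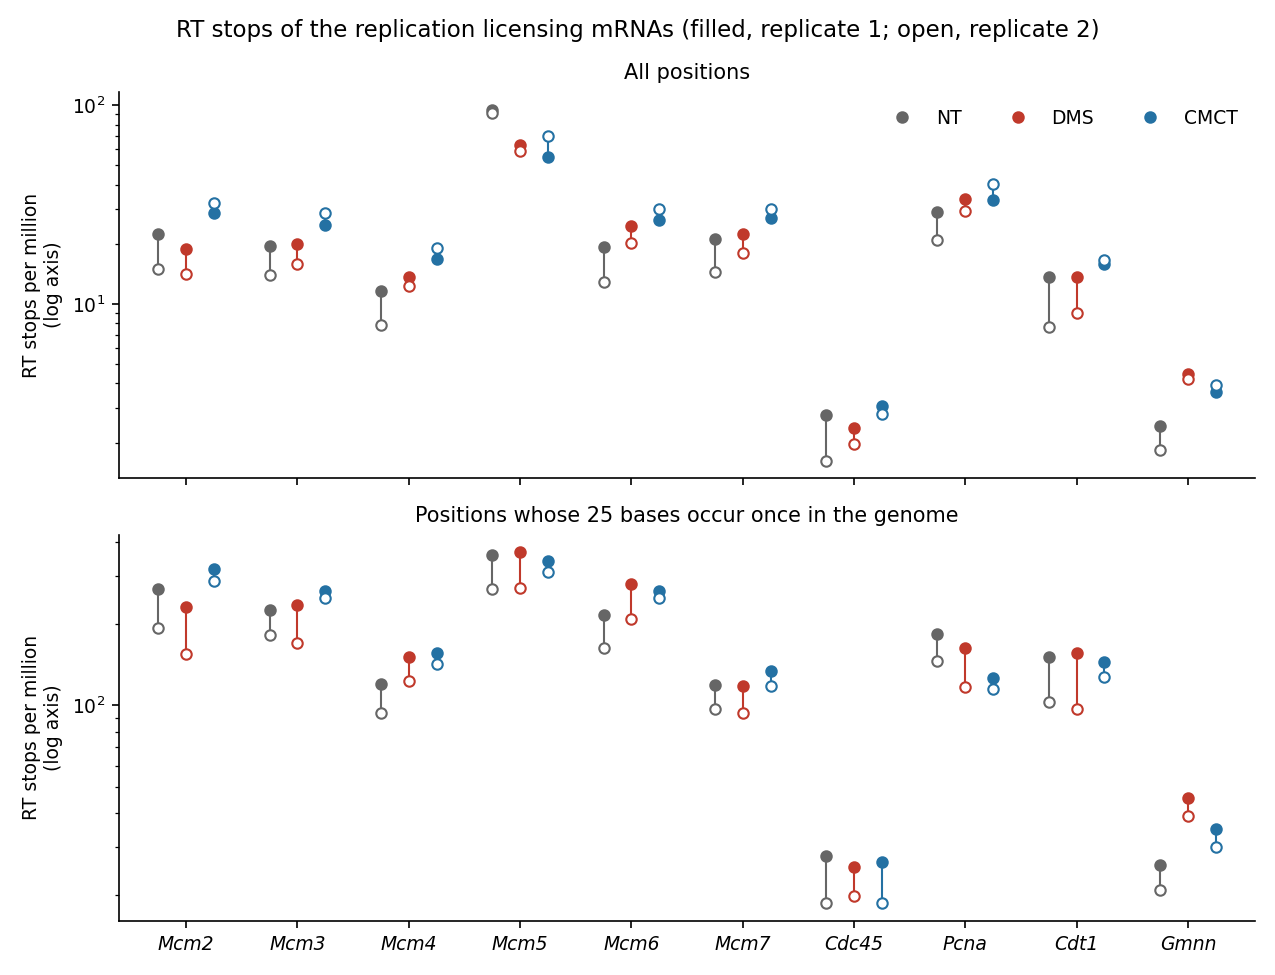
RT stops scaled to the library total (CPM) on a log axis, for the 10 mRNAs at all positions (upper panel) and at unique positions (lower panel), each panel scaled to its own total. Filled points are replicate 1 and open points replicate 2, joined by a line. *Mcm5* is highest in NT at all positions, where 95.3 and 91.1 stand above 63.0 and 59.2 in DMS, and at unique positions both DMS points of *Gmnn* lie above its NT points.

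The other genes of the replication machinery were counted in the same fits. Of 51 in the list, from the origin recognition complex to the polymerases, 44 were tested. At unique positions 0 passed in DMS, with 5 unadjusted p under 0.05 (against 30.4% of all genes, and 1548 of 7415 protein-coding ones). Their median log2 change was -0.03, compared with -0.42 in the 10 licensing mRNAs, 0.04 in all genes and -0.02 in protein-coding genes. In CMCT 1 rose, *Cul4b* (0.83, SE 0.16, adjusted p = 0.044), a cullin scaffold of ubiquitin ligases, where 4.36% of all genes and 1.23% of protein-coding ones did, and 0 fell. There 6 had an unadjusted p under 0.05 (against 27.3% of all genes, and 1679 of 7415 protein-coding ones). The *Cul4b* call was lost without NT replicate 1 (adjusted p = 0.17), NT replicate 2 (0.21), DMS replicate 1 (0.079), DMS replicate 2 (0.082) or CMCT replicate 2 (0.15). At all positions, repeated ones included, 1 of the 44 rose and 6 fell in DMS (backgrounds 13.8% and 12.5% of all genes). There 551 and 1059 of 7943 protein-coding genes did. In CMCT 2 rose and 5 fell (backgrounds 15% and 13.9%), where 517 and 1407 protein-coding genes did. Genes most like the mean profile of the licensing mRNAs over the 6 libraries were *Fam129b* (r = 0.997), *Clp1* (0.996) and *Ranbp17* (0.996), the closest of 5481 protein-coding genes with at least 100 stops in every library. With only 6 libraries shared by all genes these r are a description.

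Where along each mRNA the stops lay was tested by region, each against the rest of the single coding transcript used per gene, at unique positions. Stops outside that transcript are left out of these shares. In *Mcm5* the 5′ UTR held 6.37% and 7.87% of the stops in NT, 4.06% and 4.75% in DMS and 3.88% and 2.71% in CMCT. *Mcm3*, which encodes another ring subunit, had 3.37% and 6.62% in NT and 2.41% and 2.12% in CMCT. The 5′ UTR share fell in CMCT in these 2 of 10, by 1.101 (SE 0.18, adjusted p = 0.013) and 1.13 (SE 0.27, adjusted p = 0.025) on the log2 scale, compared with 19.3% of 4115 genes. The values of the other 8 were also below 0, from -0.98 (*Cdt1*) to -0.22 (*Gmnn*), and CMCT shares lay below NT shares without overlap in 8 of 10 (all but *Cdc45* and *Gmnn*), compared with 65.2% of genes. At all positions 7 of 10 passed for a lower share, compared with 25.9% of 4684 genes, and *Mcm5* was not among them (adjusted p = 1). Neither call survived the loss of NT replicate 2 (adjusted p = 0.25 in *Mcm5* and 0.85 in *Mcm3*) or of CMCT replicate 2 (0.28 and 0.24), and *Mcm3* was also lost without CMCT replicate 1 (0.14), DMS replicate 1 (0.059) or DMS replicate 2 (0.061). In DMS 0 of 10 passed for a lower 5′ UTR share (background 5.01%), with 3 unadjusted p under 0.05 (27.6% of genes) and log2 values from -0.89 (*Mcm2*) to 0.68 (*Gmnn*).

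*Pcna* had an uneven distribution of its own. On the transcript used, its 5′ UTR held 88.8% and 89.8% of the unique stops in NT, 71.7% and 63.9% in DMS and 74.9% and 69.4% in CMCT. Its 111 unique coding positions held 11.2% and 10.2% in NT, 28.1% and 36.0% in DMS and 25.0% and 30.4% in CMCT. The coding share rose by 1.56 (SE 0.20, adjusted p = 0.0041) in DMS and 1.37 (SE 0.20, adjusted p = 0.0032) in CMCT on the log2 scale, and *Pcna* was the 1 of 10 called for a higher coding share in each (backgrounds 2.39% and 3.55% of 5098 genes). The DMS call was lost without NT replicate 2 (adjusted p = 0.19) or DMS replicate 2 (0.073), the CMCT call without NT replicate 2 (0.16) or CMCT replicate 2 (0.077). At all positions the changes were 0.48 and 0.51 and neither passed (adjusted p = 0.62 and 0.53). Its 3 strongest unique positions in NT lay 143, 145 and 146 bases before the start codon, within 2 bases of the annotated 5′ end of another *Pcna* transcript. Together they held 64.8% and 67.3% of the unique stops on the transcript used in NT, 49.6% and 44.5% in DMS and 49.1% and 45.4% in CMCT. Since these positions were picked by their NT stops, a higher NT share is part of the selection and not a result.

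Reactivity combined the reagents and used all positions. For each transcript the log2 ratio of treated over NT stops, each scaled to a mean of 1 after adding 1 stop to every position, was taken over the summed replicates, set to 0 where it was negative or no treated stop was seen, limited at its 90th percentile, divided by it, and the larger of the DMS and CMCT values was used. All 10 mRNAs exceeded 1 stop per base in the treated libraries, from 1.07 in *Cdc45* to 14.1 in *Pcna*. At unique positions, over all its transcripts, *Pcna* had 2.555 stops per base in DMS and 3.079 in CMCT. On the transcript used, its unique positions had 8.44 (DMS) and 9.59 (CMCT) in the 5′ UTR. Its coding region had 6.44 and 5.98, and its 3′ UTR 0.022 in each. Of 6665 covered protein-coding genes, which had at least 1 treated stop per base, 4916 had a coding value. Transcripts with too few usable positions or a 90th percentile of 0 had none. Mean reactivity of the coding region ranged from 0.312 (*Cdc45*) to 0.505 (*Mcm5*), with a median of 0.394, beside 0.351 in 4916 covered genes. From unique positions alone *Pcna* was highest, at 0.592, followed by *Mcm7* (0.493) and *Mcm5* (0.435), and *Cdc45* stayed lowest at 0.308. The value of *Mcm5* over all positions is scaled by the repeated stretch of its 3′ UTR. The 5′ UTR ranged from 0.0607 (*Gmnn*) to 0.377 (*Cdc45*), with a median of 0.257 beside 0.217, and the 3′ UTR from 0.0718 (*Cdc45*) to 0.327 (*Cdt1*), with a median of 0.264 beside 0.232. The coding region was more reactive than the 3′ UTR in all 10 mRNAs (89.6% of covered genes) and more than the 5′ UTR in 9 (86.8%), *Cdc45* being the one below, although not from CMCT alone or without replicate 1, where all 10 were above. The 10 mRNAs had a median of 5.21 stops per base in the treated libraries, the covered genes 2.65, and the part of depth in these medians was not tested. Depth also differed between regions, and a base without a treated stop scored 0. At unique positions the 3′ UTR had fewer stops per base than the coding region in each mRNA, in DMS and in CMCT. The 5′ UTR of *Gmnn* had 0.2023 in DMS and 0.1245 in CMCT, against 1.339 and 1.501 in its coding region. In *Pcna* and *Cdc45* the 5′ UTR had more than the coding region with both reagents. In DMS alone it also had more in *Mcm3* (2.40 against 2.12), *Mcm5* (4.10 against 3.30) and *Cdt1* (1.90 against 1.64). The part of depth in the order of regions was not tested. In 10-base windows over all positions, repeated ones included, the replicates correlated with Pearson's r from 0.643 (*Cdc45*) to 0.920 (*Pcna*). This is a description over overlapping windows of the same transcript.

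**Figure D4:**
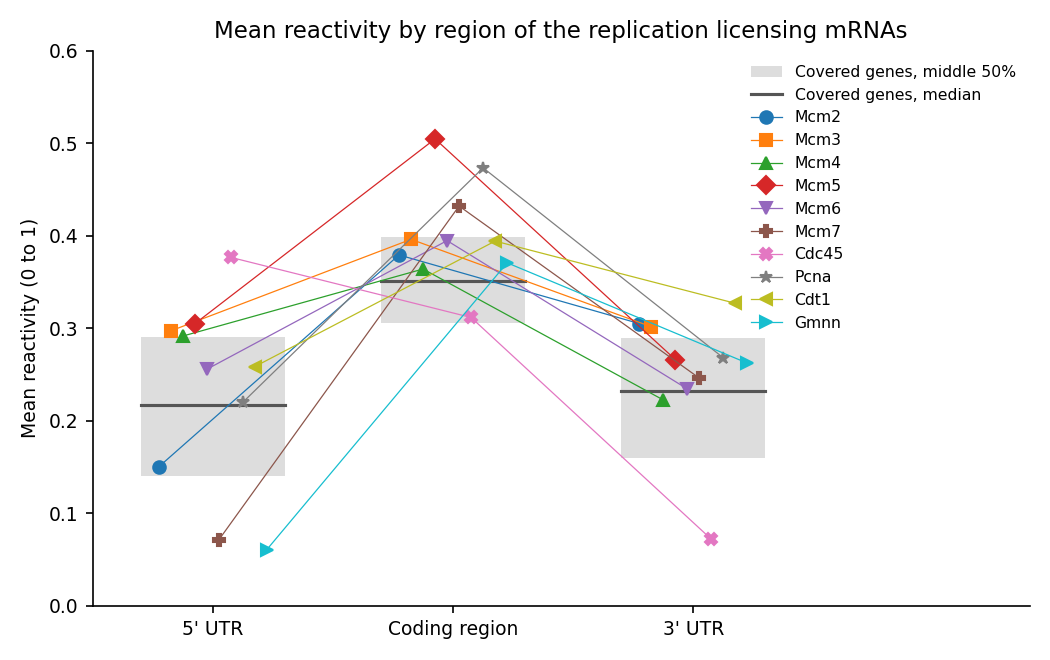
Mean reactivity by region, from 0 to 1, for each of the 10 mRNAs, joined by lines, with the median (dark line) and middle 50% (grey) of all covered protein-coding genes. The coding region lies above the 3′ UTR in each mRNA, and *Cdc45* alone has its highest value in the 5′ UTR.

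The Mcm subunits share an ATP-binding loop, the Walker A motif, and its codons let the same stretch of the 6 related mRNAs be compared. The windows below are the 24 bases that encode it, in mm9 coordinates: *Mcm2* chr6:88837897-88837920 (minus strand), *Mcm3* chr1:20802754-20803042 (minus, across an intron), *Mcm4* chr16:15629644-15629667 (minus), *Mcm5* chr8:77643205-77643228 (plus), *Mcm6* chr1:130242460-130242483 (minus) and *Mcm7* chr5:138608816-138608839 (minus). Capitals mark bases with a reactivity above 0.7.
Mcm2: ggggacccuggCacagcaaAGucc
Mcm3: gGuGAcCccuCcgUUGccAaguCc
Mcm4: ggggacccuggcAcCagcaagucC
Mcm5: GGaGAcCCuGGUacAgccAaGUCU
Mcm6: ggugAuCcAaGUAcAgcuAagagC
Mcm7: gGaGaCcCuGgUguGgCcAAauCU

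In *Mcm2* and *Mcm4* 3 of these 24 bases were highly reactive, with mean reactivities of 0.202 and 0.212. *Mcm6* had 9, *Mcm3* 10 and *Mcm7* 12, with means of 0.478, 0.448 and 0.472, and *Mcm5* 15, with a mean of 0.634. The window lay below the mean of its own coding region in *Mcm2* (0.379) and *Mcm4* (0.364) and above it in the other 4, among them *Mcm5* (0.505) and *Mcm6* (0.395). In *Mcm6* and *Mcm7* only 10 and 8 of the 24 positions were unique, so their values rest partly on positions not counted as unique. Not every such position was repeated sequence. In the coding region of *Mcm6*, 400 positions lay just before an exon junction and 102 had a second copy in the genome. In that of *Mcm7* these numbers were 350 and 1069. With reactivity from unique positions alone, the highly reactive bases were 3 of 24 in *Mcm2* and in *Mcm4*, 10 of 23 in *Mcm3*, 11 of 24 in *Mcm5*, 3 of 10 in *Mcm6* and 6 of 8 in *Mcm7*. The means were then 0.577 in *Mcm5* and 0.748 in *Mcm7*, so the order of these subunits depends on the positions used. The stops behind a single window were few in places: that of *Mcm4* held 5 and 3 stops in NT, 5 and 3 in DMS and 12 and 8 in CMCT, and that of *Mcm2* 19 and 13, 15 and 15, and 16 and 7. Windows with more highly reactive bases also rested on few stops. That of *Mcm5* held 16 and 12 in NT, 34 and 23 in DMS and 33 and 29 in CMCT, and that of *Mcm7* 15 and 10, 35 and 29, and 16 and 18.

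Transcript levels were read from the single RNA-seq library, so the intervals cover counting error only. *Mcm5* was the most abundant, at 89.7 RPKM (95% exact Poisson interval 87.7 to 91.9), and *Cdc45* the least, at 13.8 (12.7 to 14.9). *Pcna* (77.4), *Mcm3* (62.7), *Mcm7* (50.6), *Mcm2* (44.0), *Mcm4* (40.6), *Mcm6* (38.0), *Cdt1* (21.2) and *Gmnn* (19.2) lay between them in that order. The intervals of *Cdt1* (19.9 to 22.6) and *Gmnn* (17.6 to 21.0) overlapped, as did those of *Mcm4* (39.2 to 42.0) and *Mcm6* (36.8 to 39.3). All 10 lay between the 90.1 and 98.7 percentile of 22265 protein-coding genes. The other replication genes, 50 of 51 measured, had a median of 12.5, from 2.57 (*Mcm9*) to 169 (*Ddb1*). The order depended on the exons counted. Over coding exons alone, per coding length, *Pcna* was highest at 159, before *Mcm5* (117), *Mcm7* (81.6), *Mcm3* (66.6) and *Mcm6* (57.7), while *Gmnn* was at 29.6 and *Cdt1* at 18.4. The high places of *Pcna* and *Mcm7* were not kept at unique positions, where *Pcna* was at 29.1 and *Mcm7* at 30.3. Of their alignments 29.8% and 63.9% came from reads with a single alignment, against 92.7% to 98.6% in the other 8. Unique positions also cover a different part of the exons: only 111 coding positions were unique on the *Pcna* transcript used above. The part of shared sequence in these lower levels was not tested.

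The order of levels resembled that of stops per base. At unique positions *Mcm5* had 2.65 stops per base in NT over both replicates together, 2.64 in DMS and 3.77 in CMCT, and *Cdc45* had 0.447, 0.424 and 0.607. *Pcna* exceeded *Mcm5* in NT, at 3.03, where its 3 strong positions lay. Across the 10 mRNAs, Spearman's rho between level and stops per unique base reached 0.818 for NT, 0.733 for DMS and 0.758 for CMCT, a description over genes that share libraries. The levels here were those over all positions, and with levels at unique positions rho was 0.624, 0.60 and 0.794.

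**Figure D5:**
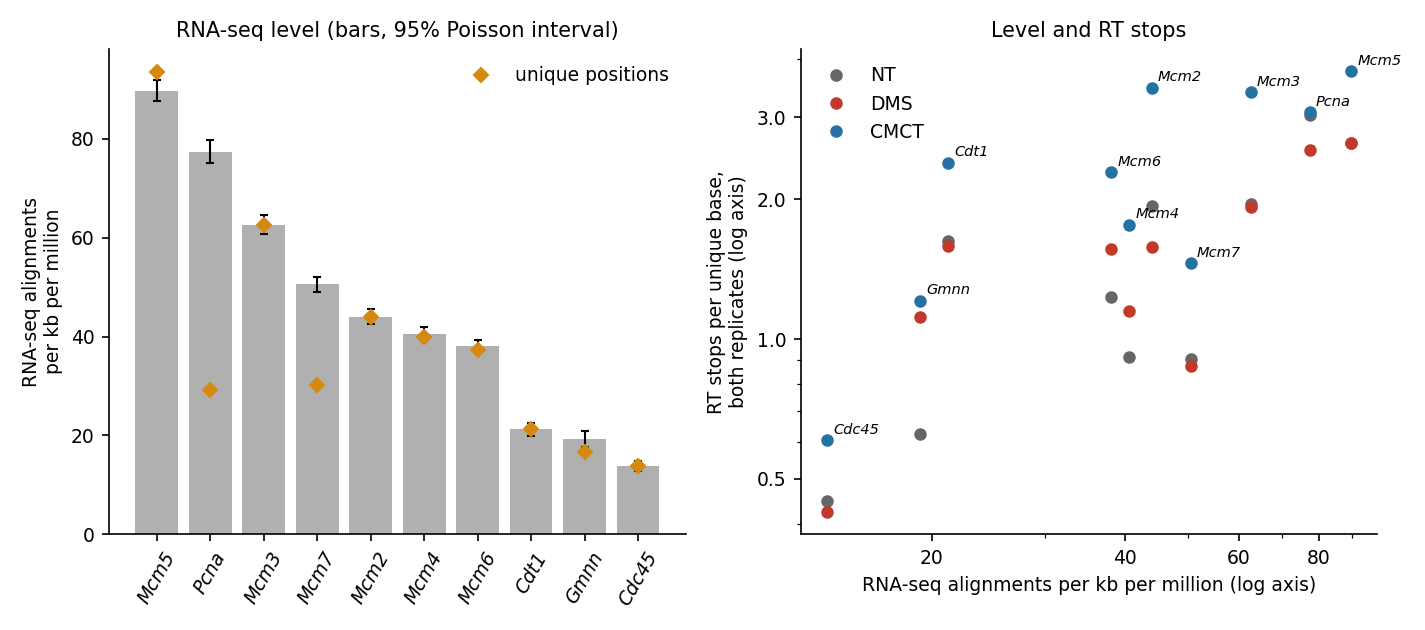
Left, RNA-seq level of the 10 mRNAs in RPKM, with 95% exact Poisson intervals and, as diamonds, the level at unique positions. Right, RT stops per unique base (both replicates together) against the RNA-seq level, both on log axes, for NT, DMS and CMCT. *Pcna* and *Mcm7* drop to 29.1 and 30.3 at unique positions, and *Cdc45* is lowest in both measures.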

How the data were processed

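The authors deposited raw counts of RT stops per transcript position for 6 CIRS-seq libraries, on a mouse genome (mm9) carrying the variants of the E14 line, and single-end alignments of 1 RNA-seq library. The submitters' processing notes name Bowtie 1.0.0, bedtools 2.17.0, FastQC 0.10.1 and TopHat2 2.0.6. How reads with several alignments were treated is not given in the sources used here. Members and gene lists were chosen with earlier results of these data known.

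From these files, each position was counted once per gene, and a position was called unique when its next 25 bases occur once in the genome. Genes were compared with edgeR 4.0.16 (TMM scaling, low counts filtered, quasi-likelihood test, Benjamini-Hochberg adjustment over all genes, threshold 0.05) over all 6 libraries, and bases and regions with its usage test of each feature against the rest of its gene. Regions were those of a single coding transcript per gene. Each SE is the log2 change divided by the square root of F. DESeq2 1.42.0, library totals, no filter, a replicate block and leaving out each library were alternatives, as were other pseudocounts, single reagents and positions for reactivity. RNA-seq alignments were counted by midpoint, and their intervals, like all others, cover counting error only. The scripts were tested on simulated data in R 4.3.3 and Python 3.11.15.

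All 10 members were named. Of the 51 other replication genes, up to 3 with the largest change each way among calls at unique positions were to be named, and the 1 call was *Cul4b*. The 3 genes most alike over the libraries were also named. Chosen after values were seen were the wider Walker A pattern, which allows serine in place of one glycine, the Walker A values from unique positions, and the count of reads with a single alignment.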

Additional observations from a re-analysis of the deposited data

How the results depend on the processing

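For 103 single values of the 10 mRNAs, 907 alternatives were run: 782 kept direction and side of the threshold, 45 lost the call, 31 gained one, 32 changed sign and 17 moved. Except where a sentence gives the reason, the cause was not tested. The replicate numbers were not shown to pair the libraries: same-numbered deviations correlated at 0.553 (NT and DMS), 0.0101 (NT and CMCT) and -0.107 (DMS and CMCT) at all positions, and at 0.409, 0.0169 and 0.0342 at unique ones. With the replicate block, 5616 genes in place of 3485 passed in DMS at all positions, 1821 in place of 1068 at unique ones and 1078 in place of 638 in CMCT at unique ones. The replicate block also brought *Gmnn* (G, adjusted p = 0.028, and U, 0.035) and *Cdc45* (U, 0.044) past the threshold in DMS, *Mcm2* (-0.71, adjusted p = 0.035) for a fall in DMS at all positions, and *Mcm2*, *Mcm4*, *Mcm6* and *Mcm7* for a lower 5′ UTR share in CMCT, 6 of 10 in all (23.4% of 4115 genes under the block).

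DESeq2 called 5593 (DMS, all), 1909 (DMS, unique) and 1878 (CMCT, unique) genes, and turned *Cdc45* in CMCT at all positions to -0.031 and *Mcm7* in CMCT at unique positions to -0.0033. Library totals called 2943 (DMS, unique) and 1311 (CMCT, unique), with 80.6% and 73.1% of calls higher at all positions and 87.7% and 83.5% at unique ones, against 52.5%, 51.8%, 70.8% and 78.5%. DESeq2 gave 63.5% and 52.3% at unique positions. In DMS at all positions library totals turned *Mcm3* (0.10), *Mcm4* (0.42), *Mcm6* (0.48), *Mcm7* (0.18), *Pcna* (0.34) and *Cdt1* (0.084). At unique positions they turned *Mcm4* (0.35), *Mcm5* (0.022) and *Mcm6* (0.37) in DMS, and *Mcm5* (0.050) and *Cdt1* (0.10) in CMCT. With all positions, 1633 bases passed in CMCT in place of 587, 2117 regions in DMS in place of 432 and 2846 in CMCT in place of 1117.

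Leaving out each library gave 1719 to 4619 genes (DMS, all), 1600 to 4402 (CMCT, all), 0 to 3576 (DMS, unique, 0 without NT replicate 1 or NT replicate 2) and 0 to 3037 (CMCT, unique, 0 without NT replicate 2 and 16 without NT replicate 1). Bases ranged from 1902 to 9243 in DMS and 249 to 577 in CMCT, and regions from 11 to 447 and 51 to 1094. Signs changed for *Mcm4* (-0.24 to 0.054 at all, -0.12 to 0.064 at unique positions) and *Mcm6* (-0.25 to 0.13 and -0.13 to 0.14) in DMS, and in CMCT for *Cdt1* (-0.012 to 0.56 and -0.20 to 0.10), *Pcna* (-0.0094 to 0.29) and *Cdc45* (-0.17 to 0.33) at all positions. They also did for U in *Pcna* in DMS (-0.78 to 0.22) and for the 5′ UTR of *Cdc45* (-1.18 to 0.12) and *Mcm3* (-0.95 to 0.024) in DMS and of *Gmnn* (-0.78 to 0.38) in CMCT.

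The median reactivity of the 10 mRNAs minus that of covered genes was 0.0397 in the 5′ UTR, 0.0434 in the coding and 0.0319 in the 3′ UTR part. A pseudocount of 5 gave 0.0207, 0.0238 and 0.0108, and leaving out a replicate 0.0370 to 0.0598, 0.0553 to 0.0685 and 0.0485 to 0.0520. In the coding part DMS alone gave 0.0194 and CMCT alone 0.0292, and in the 3′ UTR CMCT alone gave 0.0251 and unique positions 0.020. Division by the mean of each base, which changes the scale, gave 0.118, 0.166 and 0.0953. The median RNA-seq level, 42.3 RPKM, was 52.0 over coding exons, 33.7 at unique positions and 34.6 from reads with a single alignment.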
